A study of Mus musculus with 8 samples.

Results

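The 7 genes described here encode the core of MHC class II antigen presentation, namely the class II chains H2-Aa, H2-Ab1 and H2-Eb1, the invariant chain Cd74, the peptide editors H2-DMa and H2-DMb1, and the transactivator Ciita. They were chosen by gene symbol, matched from Ensembl identifiers, and all 7 were found among the 45706 genes of the count tables and among the 14491 genes that were tested. RNA-Seq had been performed on crypts, the gland-like pockets of the gut epithelium, from wild-type C57BL/6N mice whose age is not given. Of the 4 donor mice, mice 1 and 5 are labelled female and mice 2 and 3 male, and each gave 1 library of the small intestine (SI1 to SI4, in the order of mice 1, 2, 3 and 5) and 1 of the colon (COL1 to COL4). No agent or engineered allele is named for any of these libraries. The crypts had been released with EDTA, which chelates calcium and loosens the epithelium, and were not sorted by cell type, so that each library is a bulk sample of all cells in the preparation. The study's organoid protocol removes SI villi by scraping before crypts are released. It also uses less concentrated EDTA, for a shorter time, for SI than for colon. Whether the RNA-Seq crypts were prepared in that way is not stated, and if so, tissue and preparation cannot be told apart. In such bulk samples, fewer cells of a type and less RNA per cell cannot be told apart.

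MHC class II molecules are pairs of an alpha and a beta chain that display peptides from endocytosed proteins to CD4+ T cells. In the endoplasmic reticulum the invariant chain fills their groove and steers them to endosomes, where proteases trim it and the H2-DM dimer exchanges its last fragment for other peptides. Dendritic cells, macrophages and B cells present constitutively, whereas epithelial cells of the small intestine are a known site of class II expression outside the immune lineage. CIITA does not bind DNA itself but is recruited by factors bound to class II promoters, and interferon-gamma is its classical inducer.

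The libraries held between 15969428 and 32908060 counts. No 2 libraries of a tissue were repeat counts of each other. The mitochondrial share of the counts was low in SI1, SI4, COL3 and COL4 (4.83% to 7.35%) and high in the others (22.7% to 50.8%), so that both levels occurred in both tissues. The labelled tissues were checked against markers. The 5 markers of the proximal small intestine summed to between 9669 and 27200 CPM in SI and to between 1.95 and 30.05 CPM in COL, and the 3 colon markers that were tested were higher in COL. CPM stands for the count per 1000000 of the library size after TMM scaling, a method that aligns libraries on the bulk of their genes. The epithelial adhesion gene Epcam lay between 391 and 906 CPM in all 8 libraries.

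All 7 genes were higher in SI than in COL crypts, by 28-fold to 205-fold (edgeR quasi-likelihood test, adjusted p between 3.3e-05 and 0.000453). The same call, SI higher at an adjusted p-value below 0.05, was made for 15.5% of all genes tested. For each of the 7, the lowest SI library lay above the highest COL library, a separation seen in 17.8% of all genes tested, and SI was higher in 4 of 4 mice. Their log2 fold changes ranged from 4.83 to 7.68, and the share of tested genes with a called SI excess of 4 or more was 2.62%. Ranked by log2 fold change towards SI, H2-Aa came 109th, H2-Eb1 127th, Cd74 138th, H2-Ab1 146th, H2-DMb1 215th, H2-DMa 254th and Ciita 276th of the 14491 genes.

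H2-Aa (ENSMUSG00000036594, GRCm38 chr17:34282744-34287823, minus strand) encodes the alpha chain of the I-A molecule. It stood at 3067, 1103, 1083 and 1966 CPM in SI1 to SI4 and at 3.05, 5.28, 10.7 and 16.0 CPM in COL1 to COL4. The weakest SI library was thus far above the strongest COL library. The SI libraries averaged 1805 ± 937 CPM and the COL libraries 8.76 ± 5.81 CPM (SD, n = 4 each), with a log2 fold change of 7.68 ± 0.75 (SE) and an adjusted p of 3.3e-05 in edgeR's test.

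H2-Ab1 (ENSMUSG00000073421, chr17:34257689-34269419, plus strand) encodes the I-A beta chain that pairs with the product of H2-Aa. Its level was 4031, 1607, 1520 and 2787 CPM in SI1 to SI4, and its level in COL1 to COL4 was 3.76, 10.6, 27.2 and 47.4 CPM. As for H2-Aa, mouse 1 gave both the highest SI and the lowest COL value. The log2 fold change was 6.80 ± 0.88 (SE), with an adjusted p of 0.000186.

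H2-Eb1 (ENSMUSG00000060586, chr17:34305867-34316674, plus strand) encodes the beta chain of the I-E molecule. The libraries SI1 to SI4 held 1346, 675, 588 and 940 CPM, and COL1 to COL4 held 1.58, 3.17, 6.05 and 14.3 CPM. C57BL/6 mice carry the H2-b haplotype, in which the I-E alpha gene is defective, so that the I-E beta chain lacks its partner. That alpha gene, listed as H2-Ea-ps, had at most 9 counts in any library. The H2-Eb1 transcript was nevertheless among those called, with a log2 fold change of 7.13 ± 0.77 (SE) and an adjusted p of 6.06e-05.

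Cd74 (ENSMUSG00000024610, chr18:60803848-60812652, plus strand) encodes the invariant chain. It reached 12940, 4595, 4191 and 8307 CPM in SI1 to SI4 against 7.16, 30.4, 75.5 and 135.8 CPM in COL1 to COL4. Among the 7 genes it had the widest spread across COL libraries, where the highest value was 19.0 times the lowest. The log2 fold change was 6.91 ± 1.02 (SE), and the adjusted p of 0.000453 was the largest of the 7.

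The peptide editors had lower levels and smaller differences. H2-DMa (ENSMUSG00000037649, chr17:34119541-34139101, plus strand), the alpha subunit, lay at 303.4, 162.7, 141.9 and 203.9 CPM in SI1 to SI4 and at 2.79, 1.87, 9.87 and 9.70 CPM in COL1 to COL4. H2-DMb1 (ENSMUSG00000079547, chr17:34153072-34160230, plus strand), a beta subunit, lay at 294.9, 145.1, 134.3 and 188.1 CPM in SI1 to SI4 and at 1.99, 1.18, 5.06 and 7.27 CPM in COL1 to COL4. In both, the SI values were above all COL values, and COL3 and COL4 were above COL1 and COL2. The log2 fold changes were 5.06 ± 0.60 for H2-DMa and 5.60 ± 0.61 for H2-DMb1 (SE), with adjusted p-values of 0.000108 and 6.11e-05. Of the 50-base stretches of the longest H2-DMb1 transcript, 27.2% also occur in its neighbour H2-DMb2, which had at most 17 counts in any library. Of the exon bases of H2-DMa, 360 lie opposite an exon of Brd2, and whether the strand was used in counting is not given, so that reads there cannot be assigned with certainty.

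Ciita (ENSMUSG00000022504, chr16:10480059-10528418, plus strand), the transactivator, was the least abundant. It stood at 60.2, 53.8, 23.0 and 52.0 CPM in SI1 to SI4 and at 0.352, 2.30, 1.52 and 2.49 CPM in COL1 to COL4. The latter rest on 12, 37, 57 and 119 counts, so counting error adds to the spread there. SI was again above COL throughout, with a log2 fold change of 4.83 ± 0.57 (SE) and an adjusted p of 0.000104. An exon overlap of 329 bases with the antisense gene Dexi carries the same uncertainty about strand.

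**Figure D1:**
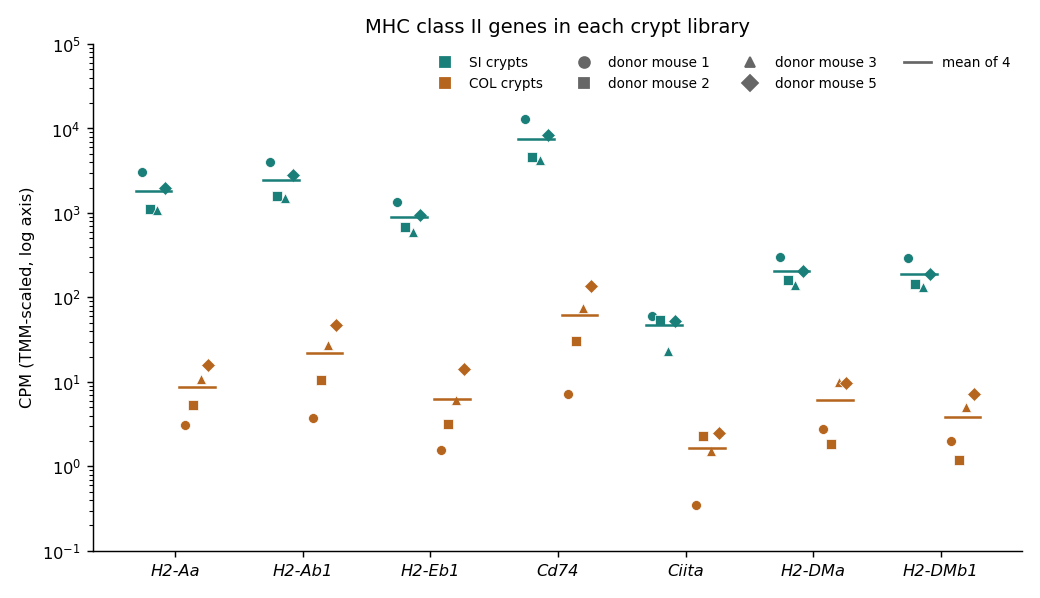
CPM of the 7 genes in each of the 8 libraries on a log axis, with SI crypts in green, COL crypts in brown, the symbol giving the donor mouse and the line the mean of 4 libraries. For every gene the 4 SI points lie above the 4 COL points, and for Cd74 the COL points run from 7.16 to 135.8 CPM.

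Together H2-Aa, H2-Ab1, H2-Eb1 and Cd74 made up 0.738% to 2.14% of the TMM-scaled library in SI and 0.00156% to 0.0214% in COL. As a share of all raw counts, with no scaling, they made up 0.588% to 1.55% in SI and 0.00224% to 0.0310% in COL, so that the ranges remained apart. Over all genes the median log2 fold change was -0.09 with TMM and -0.82 with library size alone. The log2 fold changes of the 7 genes then became 6.87 for H2-Aa, 6.31 for H2-Eb1, 6.09 for Cd74, 5.98 for H2-Ab1, 4.77 for H2-DMb1, 4.24 for H2-DMa and 4.10 for Ciita, and all 7 were still called.

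Per kilobase of exon, the order of levels in SI was Cd74 with 4472 ± 2423 CPM, H2-Ab1 with 968 ± 460, H2-Aa with 475 ± 247, H2-Eb1 with 456 ± 175, H2-DMb1 with 113 ± 43.6, H2-DMa with 58.9 ± 20.8 and Ciita with 4.95 ± 1.74 CPM per kilobase (SD, n = 4). Each gene exceeded the next in all 4 SI libraries, except that H2-Aa exceeded H2-Eb1 in 2 of 4, with ratios between 0.837 and 1.17. In COL the order was Cd74 with 37.1 ± 33.8, H2-Ab1 with 8.66 ± 7.57, H2-Eb1 with 3.23 ± 2.91, H2-Aa with 2.31 ± 1.53, H2-DMb1 with 2.31 ± 1.67, H2-DMa with 1.76 ± 1.25 and Ciita with 0.175 ± 0.102 CPM per kilobase. There H2-Aa and H2-DMb1 could not be ordered, since H2-Aa was the higher in 1 of 4 libraries. The invariant chain was therefore the most abundant and the transactivator the least abundant per length in both tissues.

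Within SI the members kept nearly the same order of libraries, whereas within COL they differed more. Across SI libraries the highest value was 2.14 to 3.09 times the lowest, and across COL libraries 5.25 to 19.0 times. SI1 was the highest SI library for all 7 genes and SI3 the lowest. In COL, the values of H2-Aa, H2-Ab1, H2-Eb1 and Cd74 were lowest in COL1, followed by COL2 and COL3, and highest in COL4, whereas COL2 held more Ciita than COL3.

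The size of the difference thus varied between the library pairs of the mice. Each mouse gave 1 library per tissue, so that mouse and library cannot be told apart. For Cd74 SI exceeded COL 1808-fold in mouse 1, 151-fold in mouse 2, 55.5-fold in mouse 3 and 61.2-fold in mouse 5. The corresponding ratios for H2-Aa were 1005, 208.8, 101.2 and 122.7. For Ciita they were 170.9 in mouse 1, resting on 12 COL counts, 23.4 in mouse 2, 15.1 in mouse 3 and 20.9 in mouse 5. Mouse 1 had the largest ratio for each of the 7 genes. With a block for the donor mouse all 7 genes were called, with adjusted p-values between 0.000161 and 0.00189. Without any 1 of the 8 libraries all 7 remained called, and the log2 fold change of Cd74 then ranged from 6.54 to 7.64.

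The mitochondrial share moved with these levels in part. In SI, the libraries with a low share, SI1 and SI4, exceeded SI2 and SI3 for 6 of the 7 genes, the exception being Ciita with 53.8 CPM in SI2 and 52.0 in SI4. Both of these libraries came from the female mice, so that sex and mitochondrial share cannot be told apart in SI. In COL the low-share libraries COL3 and COL4 exceeded COL1 and COL2 for 6 of the 7 genes, again with Ciita as the exception. The female mice gave both the lowest and the highest COL value for H2-Aa, H2-Ab1, H2-Eb1, Cd74 and Ciita. The difference between tissues was present at either level. Among the 4 libraries with a share above 20%, the log2 fold changes ran from 4.85 for Ciita to 7.98 for H2-Eb1, and among the other 4 from 4.68 for H2-DMa to 7.54 for H2-Aa, with all 7 genes called in both.

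Ratios between transcripts of 1 library do not depend on the scaling, and 4 of them were compared between the tissues. The ratio of Cd74 to H2-Aa counts was 4.22, 4.17, 3.87 and 4.22 in SI1 to SI4 and 2.35, 5.75, 7.06 and 8.48 in COL1 to COL4. The SI libraries thus kept nearly 1 ratio while their levels differed by 2.83 times for H2-Aa, whereas the COL libraries spread on either side of it. The mean difference, SI minus COL, was -0.37 on the log2 scale (two-sided exact permutation test over 70 assignments, p = 0.4, adjusted p = 0.4 over the 4 ratios). The ratio of H2-Ab1 to H2-Aa was 1.31 to 1.46 in SI and 1.23, 2.01, 2.54 and 2.96 in COL1 to COL4. The difference was -0.57 (exact permutation test, p = 0.143, adjusted p = 0.267). The ratio of H2-Eb1 to H2-Aa was 0.439 to 0.612 in SI and 0.519 to 0.893 in COL, with a difference of -0.29 (exact permutation test, p = 0.2, adjusted p = 0.267). None of these 3 ratios separated the tissues.

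The ratio of H2-DMb1 to H2-DMa was 0.892 to 0.972 in SI and 0.512 to 0.750 in COL, with no overlap. Its difference of 0.53 on the log2 scale reached the smallest p that 4 libraries against 4 allow (exact permutation test, p = 0.0286) but not the threshold after adjustment over the 4 ratios (adjusted p = 0.114). Without COL1 the ratios of H2-Ab1 to H2-Aa, of Cd74 to H2-Aa and of H2-DMb1 to H2-DMa all passed it, with differences of -0.82, -0.77 and 0.58 (adjusted p = 0.0381 each in the exact permutation test). For the first 2 COL1 lay apart from the other COL libraries, whereas for H2-DMb1 to H2-DMa it lay within their range and the adjusted p fell with those of the other ratios. The shared stretches of H2-DMb1 and the exon of Brd2 opposite H2-DMa touch the last of them.

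**Figure D2:**
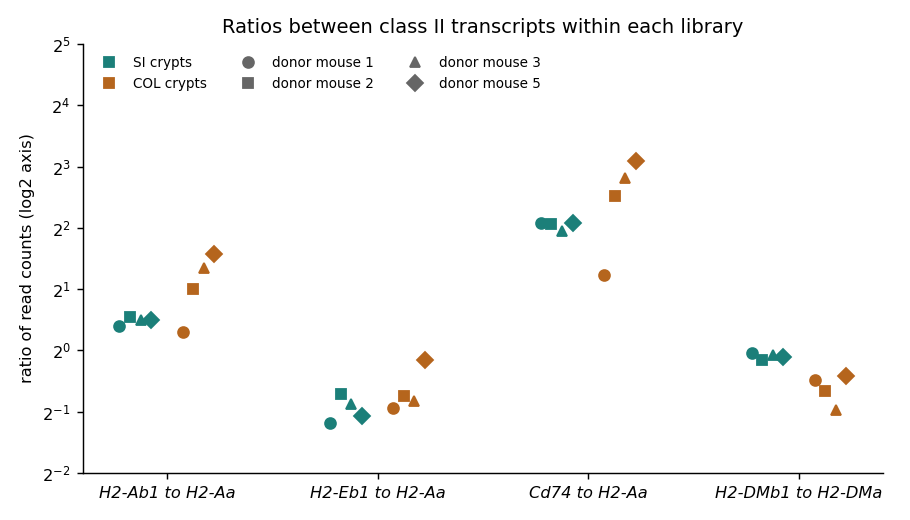
Ratios of read counts between pairs of class II transcripts within each library on a log2 axis, with SI crypts in green, COL crypts in brown and the symbol giving the donor mouse. The 4 SI points of Cd74 to H2-Aa lie between 3.87 and 4.22, whereas the COL points run from 2.35 in COL1 to 8.48 in COL4.

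Class II promoters share an X box, bound by the RFX complex, an adjoining X2 box, bound by CREB factors, and a Y box, bound by NF-Y, and CIITA docks onto this assembly. Promoter windows of 250 bases before to 50 bases after the gene start were given in RefSeq (GRCm38.p6) for 4 of the 7 members, H2-Aa, H2-Eb1, H2-DMa and H2-DMb1. Letters typical of the X box (AACNNATG), the X2 box (TGACGTCA) and the Y box (ATTGG) were searched on both strands. They were chosen with these promoters in view and occurred in 8.86%, 1.79% and 37.4% of the 32851 windows. X or X2 letters followed within 50 bases by Y letters occurred in 0.533% of windows (175). The stretches below show such pairs, in capitals, for 2 genes with high SI levels and for 2 chain genes of the same locus that were at or near 0 in both tissues.
H2-Aa (minus strand, chr17:34287847-34287917): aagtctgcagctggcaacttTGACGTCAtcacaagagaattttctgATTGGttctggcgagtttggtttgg
H2-Eb1 (plus strand, chr17:34305758-34305832): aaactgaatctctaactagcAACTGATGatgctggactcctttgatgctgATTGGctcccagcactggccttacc
H2-Ob (plus strand, chr17:34238800-34238872): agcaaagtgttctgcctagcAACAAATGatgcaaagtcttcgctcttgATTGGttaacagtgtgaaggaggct
H2-Eb2 (plus strand, chr17:34325525-34325599): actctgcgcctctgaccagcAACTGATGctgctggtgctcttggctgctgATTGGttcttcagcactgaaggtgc

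The first letters of the pair lay 26 bases apart in H2-Aa, 30 in H2-Eb1, 28 in H2-Ob and 30 in H2-Eb2. The windows of H2-DMb1 and H2-DMb2 held a pair as well, 31 bases apart, whereas those of H2-DMa and H2-Oa held none of this spelling. Genes with the pair thus included both those among the most abundant here in SI and those with few reads. H2-Eb2, a second I-E beta gene, had at most 2 counts in any library, and H2-Ob, the beta chain of the H2-DO dimer that restrains H2-DM, at most 20.

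The other genes of the class II pathway were examined next. Of 19 such genes, 13 passed the filter on low counts, 3 were higher in SI and 10 did not pass the threshold. Over all genes tested, 15.5% were called higher in SI and 12.9% in COL, and the list counts below stand beside these shares. In edgeR 0 were higher in COL, also at an unadjusted p below 0.05, and DESeq2 and limma-voom likewise gave 0. Their median log2 fold change was 0.20, beside -0.09 for all genes tested and 6.80 for the 7 members. The lowly counted chains and editors H2-DMb2, H2-Oa, H2-Ob, H2-Eb2 and H2-Ea-ps and the ubiquitin ligase March1 were not tested.

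Among the pathway genes that were called, March8 encodes a membrane-bound ubiquitin ligase that targets class II and other surface proteins for turnover. It lay at 97.1, 85.1, 98.2 and 100.7 CPM in SI1 to SI4 and at 26.9, 16.8, 33.9 and 33.9 CPM in COL1 to COL4. Its log2 fold change was 1.77 ± 0.28 (SE, adjusted p = 0.00071). Rfxank, a subunit of the RFX complex, lay at 24.5 to 49.8 CPM in SI and 11.4 to 22.4 CPM in COL (log2 fold change 1.20 ± 0.32, adjusted p = 0.0149). Ifi30, the lysosomal thiol reductase GILT, lay at 87.1 to 125.5 CPM in SI and 30.1 to 60.7 CPM in COL (1.04 ± 0.29, adjusted p = 0.0183). The call of Ifi30 was lost without SI1 (adjusted p = 0.0515) and without SI4 (adjusted p = 0.0554). It was also lost without a filter (adjusted p = 0.0739). Among libraries with a mitochondrial share above 20%, neither Ifi30 (adjusted p = 0.1485) nor Rfxank (adjusted p = 0.0631) was called. Under scaling by library size alone March8 was the only one of these still called, and Ctsl, Lgmn and Sppl2a were called higher in COL.

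The proteases that degrade the invariant chain and the other promoter-binding factors did not pass the threshold. Ctss, the cathepsin that finishes cleavage of the invariant chain in antigen-presenting cells, ranged from 134.0 to 365.1 CPM in SI and from 42.2 to 202.3 CPM in COL (log2 fold change 0.83 ± 0.49, adjusted p = 0.232). Ctsl gave -0.91 ± 0.51 (adjusted p = 0.218), the asparaginyl protease Lgmn -0.43 ± 0.35 (adjusted p = 0.396), and the intramembrane protease Sppl2a -0.27 ± 0.29 (adjusted p = 0.534). With the mitochondrial share as a covariate, Ctsl (-1.10, adjusted p = 0.0216) and Lgmn (-0.59, adjusted p = 0.0476) were called higher in COL. Among the libraries with a share below 20%, Ctss was called higher in SI (0.74, adjusted p = 0.0483) and Ctsl higher in COL (-1.16, adjusted p = 0.0301). The factors Rfx5, Rfxap, Nfya, Nfyb, Nfyc and Creb1 had log2 fold changes between -0.53 and 0.42, and Rfx5 and Rfxap were measured at no more than 5.22 CPM.

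Of the interferon-gamma route to Ciita, 3 of 6 genes analysed and tested were higher in SI and 3 did not pass the threshold, with a median log2 fold change of 0.97. The kinase gene Jak2 lay at 71.1 to 84.8 CPM in SI and 14.8 to 23.7 CPM in COL (2.11 ± 0.25, SE, adjusted p = 0.000116). The transcription factor gene Irf1, which acts on a Ciita promoter, lay at 208.5 to 479.7 CPM in SI and 43.2 to 134.3 CPM in COL (1.63 ± 0.42, adjusted p = 0.0128). Ifngr2, the receptor's signalling chain, gave 1.32 ± 0.29 (adjusted p = 0.00511). The ligand-binding receptor chain Ifngr1 gave 0.12 ± 0.42 (adjusted p = 0.865), Jak1 0.63 ± 0.27 (adjusted p = 0.102) and the inhibitor Socs1 0.58 ± 0.70 (adjusted p = 0.576). Without COL2, Jak1 passed the threshold (0.82, adjusted p = 0.0338). With the mitochondrial share as a covariate Jak1 passed as well (0.71, adjusted p = 0.0322). Among libraries with a share below 20% it also did (0.95, adjusted p = 0.0285). Ifng itself, which is made by lymphocytes, had at most 7 counts in any library. With library size alone, Jak2 was the only one of the 6 genes called.

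Of the 14 genes of class I presentation, the route for peptides from the cytosol, 10 were higher in SI and 0 in COL by edgeR (0 also at an unadjusted p below 0.05 and by DESeq2 and limma-voom), and the median log2 fold change was 1.99. B2m, the light chain of class I molecules, lay at 5684, 2139, 2684 and 4288 CPM in SI1 to SI4 and at 127.4, 141.2, 453.1 and 658.7 CPM in COL1 to COL4 (log2 fold change 3.42 ± 0.67, SE, adjusted p = 0.00289). Like the class II chains, it was highest in SI1 among SI libraries and in COL4 among COL libraries. The heavy chain genes H2-K1 and H2-D1 gave 2.15 and 2.44, and reads of class I genes may be shared with near-identical relatives. The immunoproteasome genes Psmb8, Psmb9 and Psmb10 gave 3.00, 2.60 and 1.52, the peptide transporter genes Tap1 and Tap2 2.70 and 2.22, the tapasin gene Tapbp 1.66, and the trimming peptidase gene Erap1 1.23. With library size alone 6 were higher in SI, H2-K1, Tapbp, Psmb10 and Erap1 were no longer called, and Pdia3 was higher in COL (-1.09, adjusted p = 0.0379).

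Within that list, Tapbp and Psmb10 fell just short of the threshold when certain single libraries were left out. Tapbp was lost without SI4 (1.53, adjusted p = 0.0522) or COL1 (1.46, adjusted p = 0.0562), and Psmb10 without COL1 (1.31, adjusted p = 0.0504). Nlrc5, the class I counterpart of CIITA, lay at 4.66 to 14.7 CPM in SI and 0.323 to 4.52 CPM in COL and did not pass the threshold (1.82 ± 0.72, SE, adjusted p = 0.0788). It passed with the donor mouse as a block (2.22, adjusted p = 0.0367), without COL4 (2.52, adjusted p = 0.0318), without a filter, in DESeq2 and in limma-voom with and without the block. Tapbpl (1.15, adjusted p = 0.083) passed without COL4 (1.49, adjusted p = 0.0412), without a filter, in limma-voom with and without the block, with the mitochondrial share as a covariate and within the libraries of either mitochondrial level. Calr and Pdia3, chaperones of general use in the endoplasmic reticulum, gave 0.23 and -0.29. Each of the 7 class II members had a larger log2 fold change than any of the 14 class I genes, and that order was not tested.

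Genes of the co-stimulation list, whose products signal between presenting cells and T cells beside the peptide complex, were largely at or near 0. Cd80 had 0 counts in all SI libraries and at most 4 in COL, and Cd86, Cd40 and Pdcd1lg2 had at most 18 counts in any library. Icosl, the ligand of ICOS, was higher in SI, with 8.76 to 11.0 CPM against 3.90 to 4.78 CPM (log2 fold change 1.16 ± 0.28, SE, adjusted p = 0.00992). That call was lost with library size alone (adjusted p = 0.315), without a filter (0.0614) and among the libraries with a mitochondrial share above 20% (0.201). Cd274, encoding the inhibitory ligand PD-L1, did not pass the threshold (0.11 ± 0.65, adjusted p = 0.92).

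**Figure D3:**
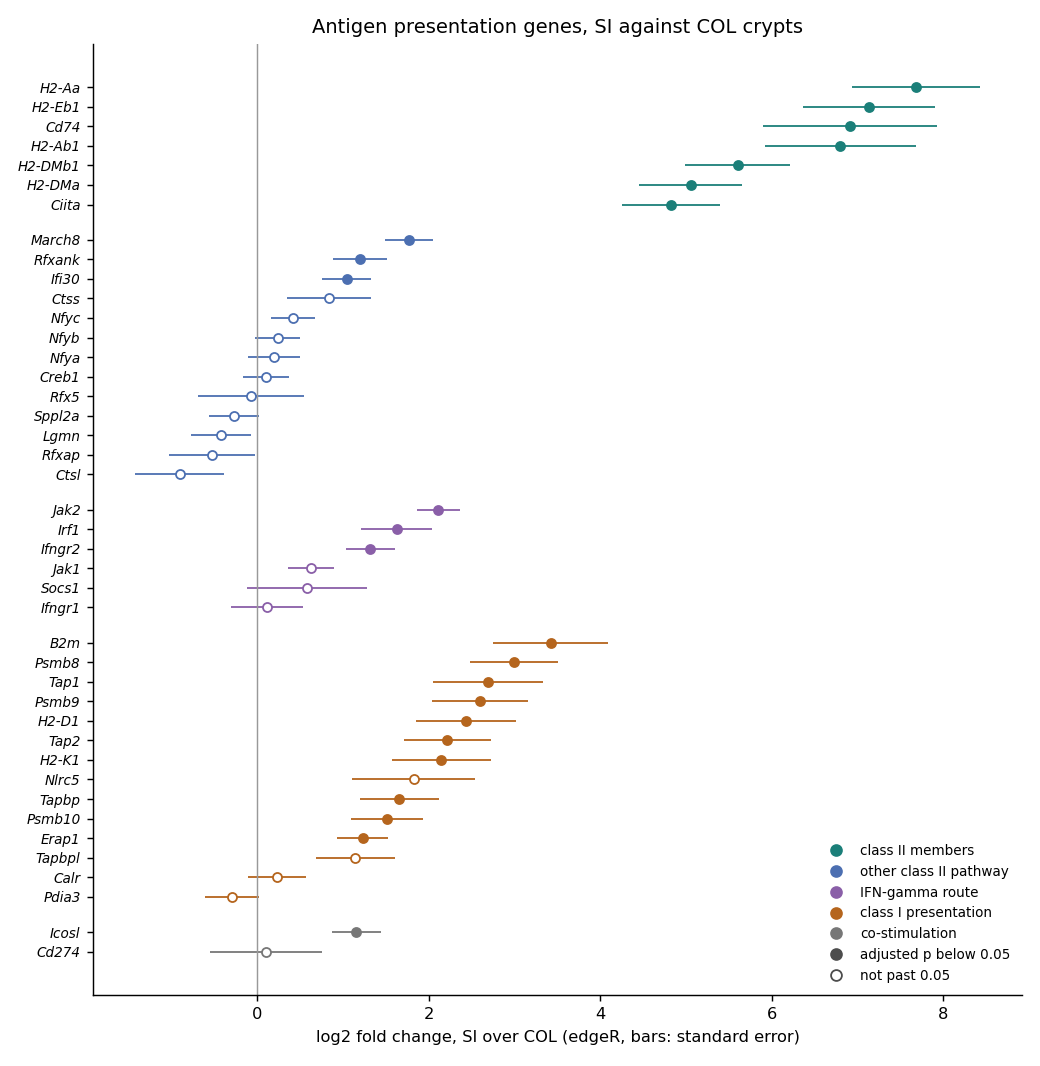
Log2 fold changes of SI over COL crypts from edgeR for the members and the 4 comparison lists, with bars for 1 standard error, filled points for an adjusted p-value below 0.05 and open points otherwise. The 7 members lie between 4.83 and 7.68, and the largest value outside them is 3.42 for B2m.

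Crypt preparations can hold leukocytes, so that markers of other cell types were set beside the class II transcripts. The 5 B and plasma cell markers analysed summed to 5.22 to 19.1 CPM in SI and 1.93 to 7.87 CPM in COL, and 0 of the 3 tested passed the threshold in edgeR. At an unadjusted p below 0.05 it was 1, Jchain, and limma-voom called 1 and DESeq2 0. The 10 macrophage and dendritic cell markers summed to 10.04 to 16.9 CPM in SI and 3.40 to 7.81 CPM in COL, and 1 of the 4 tested, Itgam, was higher in SI in edgeR, while 2 passed at an unadjusted p below 0.05, in DESeq2, in limma-voom, without a filter and without COL2. Of the others tested, Itgax had a log2 fold change of 2.185, whereas Cd68 (-0.76) and Zbtb46 (-1.02) leaned to COL without passing the threshold. In SI1, which held the most class II RNA with 88979 counts of H2-Ab1 and 1328 of Ciita, Itgam had 236 counts, Jchain 114, Itgax 68, Csf1r 34, Cd68 18, Adgre1 10, Mzb1 6, Zbtb46 5, Ms4a1 4 and Cd79b and Flt3 1 each, while Cd79a, Cx3cr1, Xcr1 and Clec9a had 0. In SI2, with 26600 counts of H2-Ab1, Itgam had 137 counts, Jchain 150, Itgax 24, Csf1r 8, Cd68 34, Adgre1 22 and Mzb1 56. Zbtb46 had 12 there, Ms4a1 37, Cd79b 51, Flt3 9, Cd79a 22, Cx3cr1 12, Xcr1 6 and Clec9a 15. The B and plasma cell sum was 5.66 CPM in SI1 and 19.1 CPM in SI2. Without SI2, 1 B and plasma cell marker was called higher in COL. The part of these cells in the class II difference was not tested.

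T cell markers followed the class II genes only in part. The 8 markers of T cells and intraepithelial lymphocytes summed to 430.5, 117.7, 129.8 and 286.7 CPM in SI1 to SI4 and to 16.0, 12.0, 14.4 and 68.4 CPM in COL1 to COL4, and 6 of the 8 were higher in SI. With the donor block, in DESeq2 and in limma-voom 8 were called, and with library size alone 2. The granzyme gene Gzma made up the largest part, with 54.0 to 201.3 CPM in SI and 0.559 to 13.5 CPM in COL. SI1 and SI4 were highest in SI and COL4 in COL, the same libraries that led in H2-Aa, H2-Ab1, H2-Eb1 and Cd74. The T cell sum was lowest in COL2, whereas those genes were lowest in COL1 and rose through COL2 and COL3. It was also lower in SI2 than in SI3, the reverse of those genes. The 4 general leukocyte markers summed to 31.3 to 81.1 CPM in SI and 12.9 to 48.0 CPM in COL, and 0 of the 4 passed the threshold in edgeR, whereas 3 did at an unadjusted p below 0.05, with the donor block and in DESeq2, and 2 in limma-voom. The innate lymphoid markers analysed summed to at most 2.48 CPM, with 0 counts of Il22 in every library, the fibroblast markers summed to at most 5.22 CPM and the endothelial markers to at most 5.84 CPM in any library. Pecam1, the 1 endothelial marker tested, was higher in COL in edgeR (log2 fold change -2.69, adjusted p = 0.0248). That call was lost without SI4 and without COL2. Of the 3 fibroblast markers tested, 0 passed the threshold in edgeR, and limma-voom called 1 higher in COL. Their median log2 fold change in edgeR was -1.56. The part of lymphocytes in the class II difference was not tested.

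Among the epithelial markers, Krt20, a keratin of differentiated epithelium, stood at 11120, 4856, 4778 and 10260 CPM in SI1 to SI4 and at 241.0, 732.6, 1619 and 1121 CPM in COL1 to COL4. From highest to lowest its SI order was SI1, SI4, SI2 and SI3, as for H2-Aa, H2-Ab1, H2-Eb1 and Cd74. Like those genes it was lowest in COL1, followed by COL2. Its highest COL value was in COL3, whereas those genes were highest in COL4. Of the 6 epithelial markers, Krt20 and Vil1 were higher in SI and Krt18 in COL, while Epcam, Cdh1 and Krt8 did not pass the threshold. Krt18 lay between 239.9 and 254.8 CPM in the SI libraries. Lyz1, a product of the Paneth cells at the SI crypt base, was lowest in the library with the most class II RNA, with 61.3 CPM in SI1, whereas the other 3 SI libraries held 401.0 to 699.9 CPM. Its value in SI3, the SI library with the least class II RNA, was 401.0 CPM. The other markers of the proximal small intestine, Fabp1, Lct, Apoa4 and Gata4, were highest in SI1, with 10970, 4461, 11650 and 52.9 CPM. The part of differentiated cells in the class II difference was not tested.

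**Figure D4:**
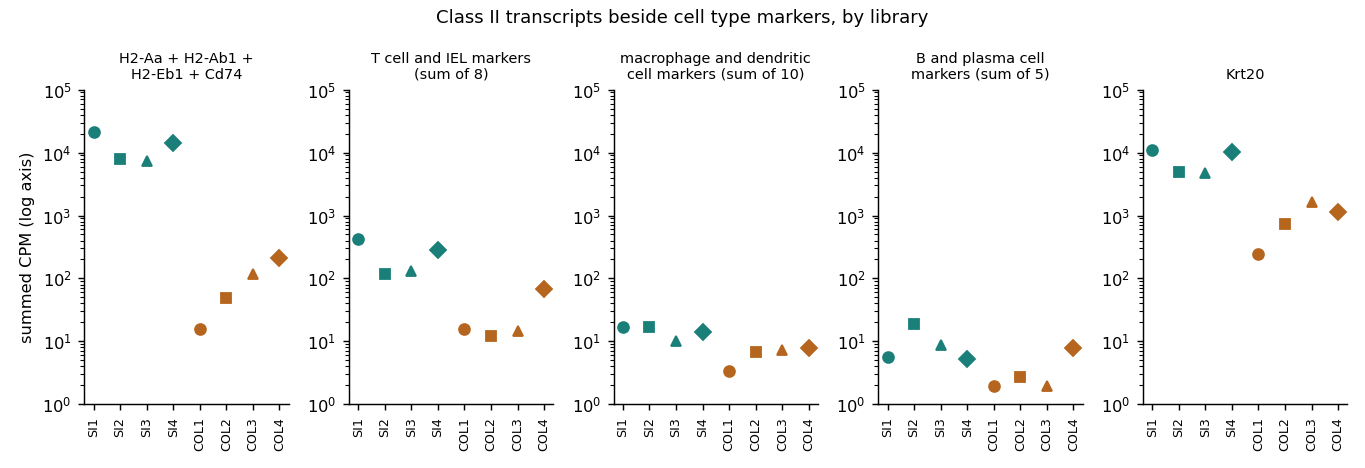
Summed CPM on a log axis in each library for H2-Aa, H2-Ab1, H2-Eb1 and Cd74, for 3 lists of immune cell markers, and for Krt20, with SI in green, COL in brown and the symbol giving the donor mouse. The class II sum spans 7381 to 21380 CPM in SI and 15.6 to 213.5 CPM in COL, while the B and plasma cell sum does not exceed 19.1 CPM.

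The genes whose pattern over the 8 libraries was most like the mean of H2-Aa, H2-Ab1, H2-Eb1 and Cd74 were sought among 10630 genes by the root mean square difference of centred log2 CPM. The closest 10 were Slc7a9 (0.42), Gpr155 (0.52), Cyp4v3 (0.55), Slc5a4b (0.57), Enpep (0.57), Agmo (0.60), Tm6sf2 (0.62), Trib3 (0.62), Ggt1 (0.64) and Tm4sf5 (0.64), where a smaller value stands for a closer match. Slc7a9, a subunit of an amino acid transporter of the brush border, lay at 533.9, 376.2, 335.0 and 541.2 CPM in SI1 to SI4 and at 0.469, 0.870, 5.08 and 6.66 CPM in COL1 to COL4. Like H2-Aa it was lowest in COL1 and highest in COL4 among COL libraries. Its highest SI value was in SI4, closely followed by SI1, whereas H2-Aa was highest in SI1. Enpep encodes aminopeptidase A and Ggt1 a gamma-glutamyltransferase, both enzymes of the cell surface. The remaining members were less alike by the same measure, with 0.99 for H2-DMb1, 1.21 for H2-DMa and 1.41 for Ciita, whose smaller fold changes enter it. The closest 10 were chosen for their pattern, so their values are a description.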

How the data were processed

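RNA-Seq of 4 SI and 4 COL crypt libraries was used. The authors trimmed paired-end reads, aligned them and counted them per gene, and deposited raw counts without normalization. The submitters' processing notes name Trimmomatic 0.36, STAR 2.5.2b, mm10 and, with no role, mm9. The annotation release and the use of strand are not given in the sources used here. Symbols and coordinates came from GENCODE vM21 (GRCm38), in which 563 of 45706 identifiers had no match. SI was compared with COL in edgeR 4.0.16 (TMM, quasi-likelihood F-test, Benjamini-Hochberg adjustment over the 14491 genes passing filterByExpr, which asks for about 10 counts in at least 4 libraries, threshold 0.05, no donor term). The study's methods name limma without settings, and limma-voom was an alternative. CPM are counts over the TMM-scaled sum of tested genes. Ratios of counts used no pseudocount and were compared in two-sided exact permutation tests. Some genes of the lists are not reported here and entered no list count or sum. The scripts were tested on simulated data. Members, lists and tests were chosen with earlier results of these data known. The genes named were the 7 members, the other genes of the lists, and the 10 closest in pattern among genes with a mean log2 CPM of at least 1 (prior count 2). Marker genes named singly were chosen after their values were seen.

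The same replicate number marks the same donor mouse in the labels, which pairs the libraries. Deviations from the tissue means correlated between the SI and COL library of a mouse at -0.24, 0.39, -0.08 and 0.33 for mice 1, 2, 3 and 5. Alternatives were library size alone, DESeq2 1.42.0, limma-voom 3.58.1 with and without the donor block, edgeR with that block, no filter, at least 10 counts in every library, the mitochondrial share as a covariate, mitochondrial genes left out, and each library left out. Fits within libraries above or below a mitochondrial share of 20% were added after the data were seen. The spread between libraries of a tissue limits precision for the well-counted SI values, while counting error adds to it for the lowest COL counts.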

Additional observations from a re-analysis of the deposited data

Results flagged for a closer look

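A gap test (Dixon's, at its 95% critical value for 4 libraries) was applied to 92 sets of 4 values of 1 tissue, of which chance marks about 1 in 20. It marked 6 values, in COL2, COL1, SI1 and SI3. Ifi30 was at 30.1 CPM in COL2 against 57.7 to 60.7 CPM in the other COL libraries. Rfx5 was at 3.05 CPM in COL2 against 1.11 to 1.28 CPM, and Jak1 at 77.1 CPM in COL2 against 48.9 to 52.5 CPM. COL2 is also the library with the fewest counts and the highest mitochondrial share, 50.8%. Cd274 was at 0.587 CPM in COL1 against 4.15 to 4.42 CPM. H2-D1 was at 3868 CPM in SI1 against 722.2 to 1160 CPM in the other SI libraries. The log2 ratio of Cd74 to H2-Aa was 1.95 in SI3 against 2.06 to 2.08. None of the levels of the 7 class II members was marked.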

How the results depend on the processing

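All 7 members were called higher in SI under each of the 19 alternatives, with the largest adjusted p 0.00426, for Ciita within libraries of high mitochondrial share. The replicate block by donor mouse gave 2221 genes higher in SI and 1851 higher in COL, beside 2253 and 1863 without it. It changed the call of Nlrc5 and no call of another listed gene or of a member, and among marker lists it added 3 general leukocyte markers, 2 T cell markers and 1 B and plasma cell marker. Sign-flip tests within mice cannot give a p below 0.125 for the 4 ratios.

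Library size alone gave 1115 genes higher in SI and 4788 higher in COL. It left 1 pathway gene higher in SI and 3 higher in COL, 1 gene of the interferon-gamma route, 6 class I genes with 1 higher in COL, and 0 co-stimulatory genes. It turned the direction of 9 genes that had not passed the threshold, namely Nfya (-0.55), Nfyb (-0.52), Nfyc (-0.36), Creb1 (-0.60), Ifngr1 (-0.67), Jak1 (-0.0904), Socs1 (-0.15), Calr (-0.57) and Cd274 (-0.62). Without a filter 0 co-stimulatory genes were called. With at least 10 counts in every library Creb1 was -0.022 and Cd274 -0.0181, and with mitochondrial genes left out Creb1 was -0.0161. With the mitochondrial share as a covariate 2 pathway genes were higher in COL, and Rfx5 became 0.18, Ifngr1 -0.0771 and Cd274 -0.0936. The 4 libraries with a share above 20% gave 1406 and 986 genes, 1 pathway gene, 2 genes of the interferon-gamma route and 0 co-stimulatory genes higher in SI, with Nfya at -0.18, Creb1 at -0.13 and Cd274 at -0.54. The 4 others gave 4 pathway genes higher in SI and 1 higher in COL, with Rfx5 at 0.14 and Nfyb at -0.15. With each library left out in turn, Ifngr1 ranged from -0.19 to 0.35, Cd274 from -0.27 to 0.42, Rfx5 from -0.34 to 0.39 and Creb1 from -0.0185 to 0.31, and the log2 ratios from -0.82 to -0.40 (H2-Ab1 to H2-Aa), -0.39 to -0.13 (H2-Eb1 to H2-Aa), -0.77 to -0.15 (Cd74 to H2-Aa) and 0.42 to 0.60 (H2-DMb1 to H2-DMa). The causes were not tested, except that fits within 4 libraries rest on fewer samples.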
